A study of Mus musculus with 32 samples.

Results

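The unfolded protein response and the chaperones of the endoplasmic reticulum (ER) were described here through 32 named genes of the 35458 genes to which transcripts could be assigned. The members were 3 stress sensors, 23 genes of the ATF6/XBP1 type (Xbp1 itself, 15 chaperones and folding enzymes, and 7 genes of ER-associated degradation) and 6 genes of the ATF4/CHOP type. They were chosen by name, with earlier results of these data known, and reads of all annotated transcripts of a gene were summed. Together they took 0.559 to 0.768% of reads in the control and mouse-host libraries, 0.895 to 1.04% in the rat-host libraries and 0.807 to 1.09% in the graft libraries.

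RNA was sequenced from pools of 10 to 20 parathyroid gland cells, the endocrine cells that secrete parathyroid hormone, picked by hand for tdTomato fluorescence. There were 32 libraries in 8 experiments of 4 replicates. Control cells came from C57BL/6-Pthtm1(P2A-tdTomato)/+ mice, in which 1 Pth allele carries the reporter, with experiment 1 labelled male at 8 weeks and experiment 2 labelled female at 11 weeks. Mouse-host cells were derived from Pth-tdTomato mouse embryonic stem cells (ESCs) that complemented Gcm2-/- mice of BDF1B6 background, all at 9 weeks. Of the 4 mouse-host experiments, 1 to 3 were labelled female and experiment 4 male. Rat-host cells were derived from Pth-tdTomato mouse ESCs in a Gcm2-/- Wistar rat and came from neonates of unknown sex. The graft was labelled as grafted ESC-derived cells with the strain text of the mouse hosts, male, at 12 weeks. Gcm2, which the hosts lack, encodes the transcription factor needed to form the parathyroid gland, so all cells other than the controls developed in an animal without a gland of its own. Rat host and graft had 1 experiment each, and host species, age, sex and collection cannot be told apart in them. The labels call the 4 libraries of an experiment biological replicates but do not say whether they came from separate animals. P-values of fits on single libraries thus reflect no more than how these samples varied, which may be technical variation. Those of fits on counts summed per experiment reflect no more than how these few experiments varied.

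The ER folds secreted proteins, and when unfolded protein builds up, 3 sensors in its membrane signal to the nucleus. ATF6 is cut to release a transcription factor, IRE1 (Ern1) splices Xbp1 mRNA to make another, and PERK (Eif2ak3) slows translation, which favours synthesis of ATF4. ATF6 and XBP1 raise chaperones, folding enzymes and the machinery that removes misfolded protein, whereas ATF4 raises amino acid genes and Ddit3, which encodes CHOP, a factor linked to cell death. An endocrine cell passes its hormone precursor through the ER, so many of these genes are expressed without any stress.

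Both classes have known promoter elements, and a few promoter stretches that hold them are shown so that the members can be read beside their values. RefSeq promoters (GRCm38.p6, 250 bases before to 50 after the start) were found for 28 of the 32 members. Derl1, Atf6, Hyou1 and Manf were not among them. Motifs were searched on both strands. The ER stress element ERSE, spelled CCAAT, 9 bases of any kind and CCACG, was found in 9 members, namely Hspa5, Hsp90b1, Pdia6, Calr, Canx, Dnajc3, Creld2, Syvn1 and Derl3, and in 0.13% of 27025 promoters of the same length. ERSE-II, spelled ATTGG, 1 base of any kind and CCACG, was found in Dnajb11 and Herpud1 and in 0.037% of all promoters. UPRE, spelled TGACGTGG, was in none of the members and in 0.607% of all promoters. CARE, the element bound by ATF4 and its partners, was searched as TGATGNAAN and matched in Asns, Chac1, Trib3 and Herpud1 and in 4.04% of all promoters. By class, ERSE was found in 7 of 13 chaperones with an entry and in none of the 6 ATF4/CHOP-type genes, and CARE in 3 of those 6 and in none of the 13 chaperones. Herpud1 alone held an ERSE-II and a CARE match, and no 2 matches overlapped. A match is a description of the letters, and binding was not measured. The ERSE matches, in capitals, are shown for 5 abundant members described below, on the gene's strand and without bases past the start. Hspa5 lies at chr2:34772005-34772063 (plus strand), Hsp90b1 at chr10:86705513-86705676 (minus strand), Pdia6 at chr12:17266471-17266529 (plus strand), Calr at chr8:84847055-84847113 (minus strand) and Canx at chr11:50325780-50325838 (minus strand).
Hspa5: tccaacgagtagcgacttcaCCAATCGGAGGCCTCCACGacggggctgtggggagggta
Hsp90b1: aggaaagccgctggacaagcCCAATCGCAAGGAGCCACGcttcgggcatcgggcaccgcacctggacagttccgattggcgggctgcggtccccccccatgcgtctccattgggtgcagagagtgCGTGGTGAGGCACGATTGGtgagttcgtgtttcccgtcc
Pdia6: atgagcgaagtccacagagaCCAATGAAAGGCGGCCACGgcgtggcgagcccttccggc
Calr: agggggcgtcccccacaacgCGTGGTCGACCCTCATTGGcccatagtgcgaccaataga
Canx: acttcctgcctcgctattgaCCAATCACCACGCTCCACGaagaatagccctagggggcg

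Hsp90b1 carried 2 matches, 1 on each strand, and the match in Calr lay on the strand opposite to the gene. For contrast, the CARE matches of 2 ATF4 targets are shown in capitals, Asns at chr6:7693210-7693252 (minus strand) and Chac1 at chr2:119351028-119351076 (plus strand), the latter read on the opposite strand. Herpud1, at chr8:94386357-94386407 (plus strand), is shown with its ERSE-II match in capitals.
Asns: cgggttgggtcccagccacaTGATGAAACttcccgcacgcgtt
Chac1: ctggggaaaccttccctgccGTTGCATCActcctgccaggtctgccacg
Herpud1: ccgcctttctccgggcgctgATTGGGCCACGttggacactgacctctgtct

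The 4 libraries of control experiment 1 were the deepest, with 29471254 to 32264864 reads, and the other 28 held 9470744 to 15098391. The summed level of 5 parathyroid markers (Pth, Gcm2, Casr, Chga, Gata3) was 317775 CPM (read counts scaled to a common library size) in controls and 305698 in mouse hosts. It was 313515 in the graft and 165790.5 in the rat host, where all 5 were present. Chga and Pth made up most of these sums, at 120962.9 and 43108.5 CPM in the rat host against 214363.5 and 89193.3 in mouse hosts. Casr and Gcm2 were lower as well, at 377.6 and 707.2 CPM in the rat host against 600.3 and 963.8. Gata3 was higher, at 634.4 CPM against 576.8, and Gcm2 stood above the controls (657.2). Plasma cells are rich in ER chaperones, and their markers Jchain, Ighm and Igkc had no read in any library, while Mzb1 reached at most 2.34 CPM. All 7 macrophage markers were at 0 in the rat host. Their sum reached at most 66.3 CPM in controls, 13.7 in mouse hosts and 29.5 in the graft. The sum of 8 fibroblast markers spanned 255.0 to 410.8 CPM for the rat host (Col1a2 at 0), from 280.5 to 848.9 in the graft, from 441.0 to 3112 in mouse hosts and from 659.5 to 4042 in controls. Host cells carried over in the rat host would be rat cells, and how their reads count toward these mouse genes was not tested. The library sizes were adjusted by the trimmed mean of M values (TMM). Without that adjustment the median log2 fold change of all genes moved by 0.16 for rat host against mouse host, by -0.04 for graft against mouse host and by 0.21 for rat host against graft.

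Among the members, levels per transcript length (TPM, a level scaled by length and library) spanned from Hspa5 at a mean of 667.5 TPM over the 8 experiments to Chac1 at 0.246 TPM. Hspa5 encodes BiP, the main Hsp70 of the ER. Pdia3, a disulfide isomerase that works on glycoproteins, followed at 514.1 TPM, then the calcium-binding lectin chaperone Calr at 273.3, the ER Hsp90 gene Hsp90b1 at 266.3 and the disulfide isomerase Pdia6 at 238.5. Xbp1 ranked 12th at 112.3 TPM. The ATF4/CHOP-type genes lay lower, with Asns at 58.9, Ddit3 at 56.6, Ppp1r15a at 22.3 and Atf4 at 19.9 TPM. The sensors Ern1, Eif2ak3 and Atf6 lay at 4.19, 3.65 and 3.46 TPM, and Derl3, Trib3 and Chac1 closed the order below 2 TPM. The experiment means of Hspa5 ran from 485.2 to 1038 TPM and those of Pdia3 from 438.9 to 673.4, so even the first 2 overlapped. Calr, Hsp90b1 and Pdia6 overlapped with each other as well, as did the 3 sensors, so the order of such neighbours is not fixed by these values.

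The summed level of the 15 chaperones and folding enzymes was higher in the rat host and the graft than in any of the other 6 experiments. It was 6225 ± 36.5 CPM in controls (SD over 2 experiments), 5711 ± 351.0 in mouse hosts (SD over 4 experiments), 7695 ± 424.3 in the rat host and 8380 ± 1084 in the graft (SD over 4 libraries each). The rat-host libraries held 7072 to 8025 CPM and the mouse-host libraries 4725 to 7122, so 1 mouse-host library, replicate 1 of experiment 4, exceeded the lowest rat-host one. The control libraries held 5557 to 7102 CPM, and replicate 3 of control experiment 2 exceeded that rat-host library as well. The graft libraries, from 7647 to 9990 CPM, did not overlap the mouse-host range. The sum over ATF4/CHOP-type genes went the other way in the rat host, at 150.2 ± 51.0 CPM against 231.1 ± 25.2 in mouse hosts, and was 229.5 ± 45.7 in the graft and 218.3 ± 12.4 in controls. The ratio to mouse host was 1.35 for chaperones and 0.65 for ATF4/CHOP-type genes in the rat host, and 1.47 and 0.993 in the graft. Per library, the ATF4/CHOP-type sum was 1.31 to 2.56% of the ATF6/XBP1-type sum in the rat host, 1.89 to 3.25% in the graft, 2.89 to 4.79% in mouse hosts and 2.08 to 4.23% in controls, so the controls overlapped both the rat host and the graft. These sums are descriptions, carry no test and are weighted towards abundant genes. Hspa5 alone had means of 1344 CPM in mouse hosts, 1965 in the rat host and 2332 in the graft. Of the 15 chaperones, 12 had a positive and 3 a negative log2 fold change in the rat host against mouse host. In the graft 14 were positive and 1 negative. On unadjusted library totals the chaperone ratio was 1.6 in the rat host and 1.43 in the graft. On TPM the rat host stood above the graft, at 4554 ± 259.6 against 3434 ± 494.2 TPM, and the ratios to mouse host were 1.81 and 1.36. For the ATF4/CHOP-type sum the ratio of rat host to mouse host was 0.772 on library totals and 0.859 on TPM, and that of the graft 0.97 and 0.739. On TPM the graft held the lowest sum of that class, at 127.8 TPM, beside 148.6 in the rat host, 148.2 in controls and 173.0 in mouse hosts.

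**Figure D1:**
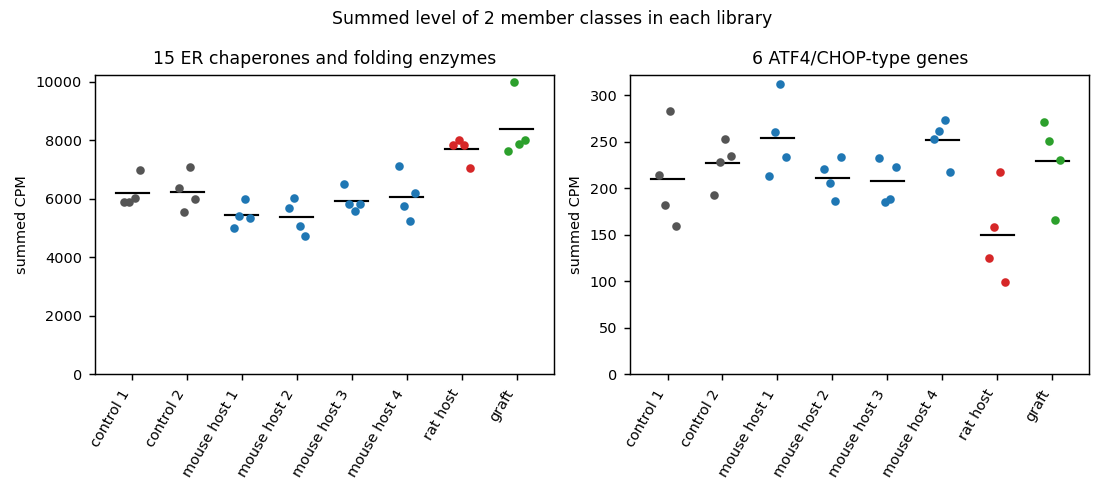
Summed CPM (vertical axes, from 0) of the 15 chaperones and folding enzymes (left) and the 6 ATF4/CHOP-type genes (right) in each of 32 libraries, grouped by experiment, with a bar at the mean of 4 libraries. Chaperone sums in the graft lie above all mouse-host libraries, and on this scale the rat host has the lowest mean of the ATF4/CHOP-type sum.

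Whether ESC-derived cells that grew in a mouse host carried a different ER programme from native cells was asked by setting the 4 mouse-host experiments against the 2 control experiments. No member was called at an adjusted p below 0.05 (edgeR's quasi-likelihood test on counts summed per experiment, Benjamini-Hochberg over 15698 genes). The same test called 0% of all genes, while 691 genes (4.4%), among them 3 of 32 members, had an unadjusted p below 0.05. DESeq2 called 2 members, Trib3 and Chac1, which had no read in any control library, and 0.812% of genes with a p-value. edgeR on single libraries called no member and 0.107% of genes. Of the 23 ATF6/XBP1-type genes 17 had a negative log2 fold change, and their median was -0.11 beside 0.00 for all genes tested.

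The 3 members below an unadjusted p of 0.05 were all lower in the mouse hosts. Dnajb9 encodes a co-chaperone of BiP that also restrains IRE1. Its control libraries held 28.6 to 70.3 CPM (median 48.6) and its mouse-host libraries 17.9 to 60.8 (median 25.1), a log2 fold change of -0.73 (SE 0.26, adjusted p = 0.892). Manf, a secreted ER protein that binds BiP, ran from 46.0 to 133.7 CPM (median 103.4) in controls and from 52.1 to 120.7 (median 70.1) in mouse hosts, a log2 fold change of -0.44 (SE 0.15, adjusted p = 0.892). Hspa5 held 1399 to 2001 CPM (median 1614) in controls and 1102 to 1692 (median 1315) in mouse hosts, a log2 fold change of -0.27 (SE 0.10, adjusted p = 0.892). The ranges of the groups overlapped for each of these genes, and none of the 32 members separated all 16 mouse-host libraries from all 8 controls. Over all genes 0% lay above and 0.00637% below, so nothing is read from this count. The next largest changes among members of at least 8 CPM were those of Atf6 (-0.48, SE 0.27), Edem1, a mannosidase-like protein of ER-associated degradation (0.47, SE 0.37), and Atf4 (-0.45, SE 0.37), all with adjusted p of 0.892 to 0.936.

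In the rat-host cells the disulfide isomerase gene Pdia6 rose, and several other folding genes had higher values than in mouse hosts. Of the 23 ATF6/XBP1-type genes 18 had a positive log2 fold change against mouse host, with a median of 0.54 beside -0.03 for all genes tested. A single member was called, Pdia6, while 0.643% of all genes were called in either direction and 0.217% as higher. With Pdia6, 11 of 32 members had an unadjusted p below 0.05, as had 11.6% of all genes. The rat host had 1 experiment, and the test assumes that it varies between experiments like the other arms.

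Pdia6 and P4hb are disulfide isomerases, which form and rearrange the bonds between cysteines of secreted proteins. Pdia6 read 792.4, 909.1, 824.3 and 873.0 CPM in the 4 rat-host libraries and 289.1 to 583.6 (median 400.4) in the mouse-host ones, a log2 fold change of 1.14 (SE 0.19, adjusted p = 0.0466). P4hb read 689.5, 717.6, 628.0 and 561.1 CPM in the rat host and 181.0 to 499.2 (median 311.6) in mouse hosts, a log2 fold change of 1.11 (SE 0.26, adjusted p = 0.128). For both genes each rat-host library stood above every mouse-host and every control library. The Pdia6 call rests on a thin margin. It was lost when either control experiment or mouse-host experiment 2, 3 or 4 was left out (adjusted p = 0.0949 to 0.107, edgeR). It was also lost without any 1 of 15 single libraries (adjusted p = 0.0501 to 0.079), with a log2 fold change between 1.06 and 1.17 in all these fits. The 15 were replicates 1 and 2 of control experiment 1, 1 and 3 of control experiment 2, 1 and 4 of mouse-host experiment 1, 1 to 3 of experiment 2, 3 and 4 of experiments 3 and 4, and replicate 2 of the rat host and of the graft.

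Hspa5 read 1970.1, 1982, 2059 and 1849 CPM in the rat-host libraries against the mouse-host range of 1102 to 1692, a log2 fold change of 0.59 (SE 0.13, adjusted p = 0.109). Dnajb11, an Hsp40 that feeds substrates to BiP, read 234.8, 185.6, 246.2 and 185.6 CPM against 93.4 to 160.1 (median 136.0) in mouse hosts, a log2 fold change of 0.71 (SE 0.17, adjusted p = 0.14). Hspa5, Dnajb11, Pdia6 and P4hb were thus the 4 members of 32 whose rat-host libraries all lay above all 16 mouse-host libraries, where 1.65% of all genes did so. No member lay below all 16, where 1.38% of all genes did. Dnajb11, Pdia6 and P4hb also lay above all 24 control and mouse-host libraries, as did 1.29% of all genes, and no member lay below those 24. On unadjusted library totals Sdf2l1 joined the first 4, and all 5 then stood above the 24 libraries. The share of all genes was not computed on that scale, where the median of all genes moved by 0.16. Nothing is therefore read from the count of 5.

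Of the other members with an unadjusted p below 0.05, 5 had positive values here and 2, of the ATF4/CHOP type, negative ones. Hyou1, an Hsp110-type exchange factor for BiP, had a log2 fold change of 0.83 (SE 0.29, adjusted p = 0.309), Manf 0.75 (SE 0.18, adjusted p = 0.142) and Sdf2l1, which helps keep BiP bound to its substrates, 0.69 (SE 0.20, adjusted p = 0.205). The degradation channel gene Derl1 had 0.63 (SE 0.27, adjusted p = 0.42) and the disulfide isomerase Pdia4 0.44 (SE 0.14, adjusted p = 0.275). None of these groups separated. Hyou1 read 53.1, 54.8, 52.9 and 25.04 CPM in the rat host, with replicate 4 inside the mouse-host range of 11.6 to 51.2.

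The ATF4/CHOP-type genes of the rat host did not move together. Ppp1r15a encodes GADD34, which restores translation after PERK has slowed it. It read 16.6, 11.4, 28.6 and 25.2 CPM in the rat host and 7.07 to 121.4 (median 55.8) in mouse hosts, a log2 fold change of -1.36 (SE 0.52, adjusted p = 0.365). Asns, asparagine synthetase, read 60.01, 65.4, 93.4 and 40.4 CPM against 53.9 to 170.7 (median 116.6), a log2 fold change of -0.77 (SE 0.24, adjusted p = 0.264). Atf4 itself read 39.3, 43.0, 61.3 and 23.4 CPM against 5.85 to 42.0 (median 22.0), a log2 fold change of 0.96 (SE 0.46, adjusted p = 0.489). Atf4 mRNA thus differed in sign from the other 2, none of the 3 was called, and the groups overlapped for all of them. Ddit3 split the rat-host libraries into 9.19 and 10.7 CPM in replicates 1 and 4 and 38.6 and 34.4 in replicates 2 and 3. The immediate early genes respond to cell handling and share regulators with this class. Their summed level was 121.5 to 1046 CPM in mouse hosts and 150.2 to 296.4 in the rat host. Fos, Fosb, Junb and Egr1 had lower means in the rat host than in mouse hosts. Jun had a higher one (126.3 against 62.6 CPM) and Ier2 a similar one (50.95 against 53.5). Atf3 was at 0 in the rat host and the graft alike and reached at most 0.108 CPM in mouse hosts. The part of the immediate early genes in the values of Ppp1r15a was not tested.

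**Figure D2:**
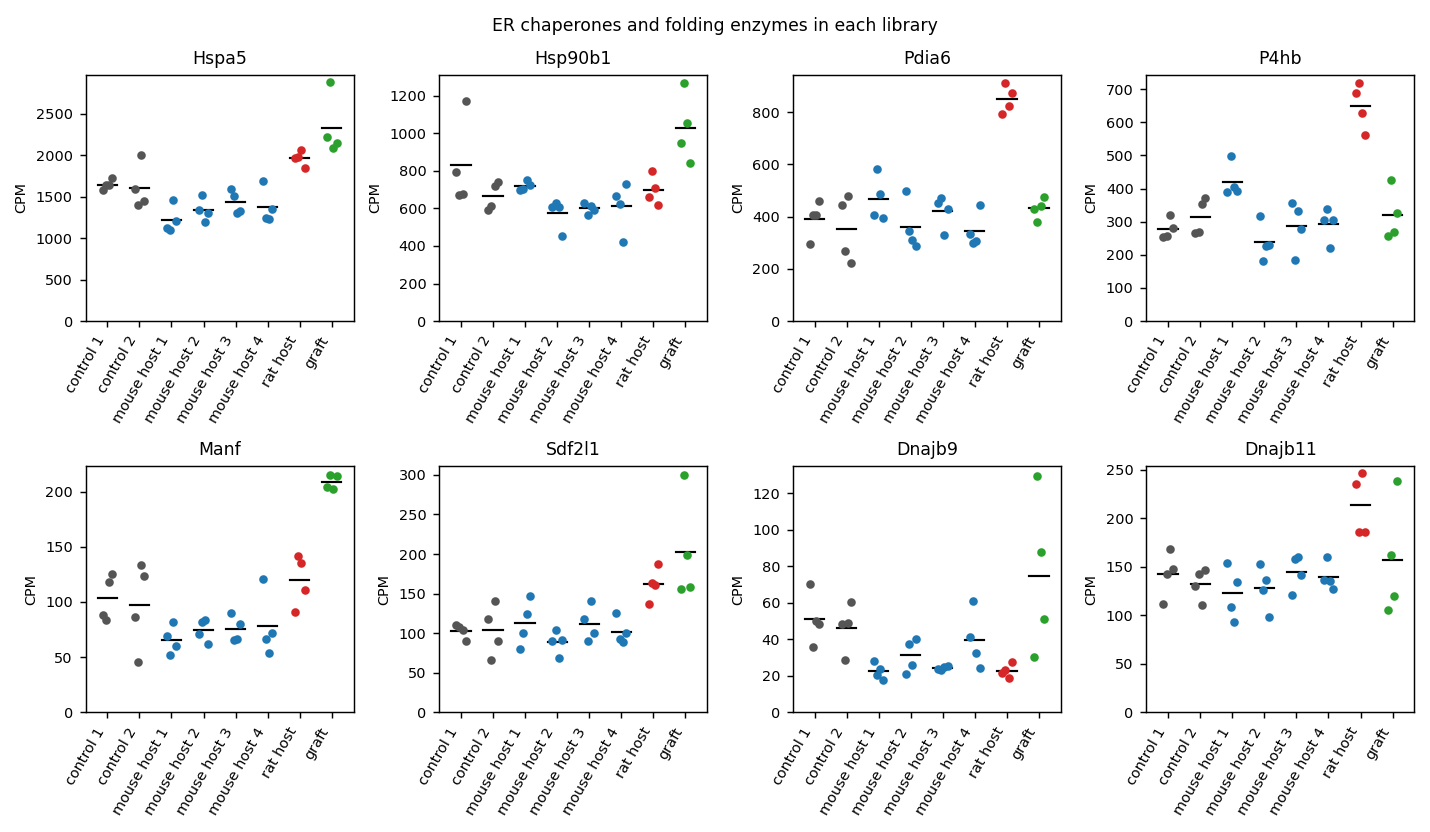
CPM (vertical axes, from 0) of 8 ER chaperones and folding enzymes in each of 32 libraries, grouped by experiment, with a bar at the mean of 4 libraries. Pdia6 and P4hb stand apart in the rat host, Manf stands apart in the graft, and Hspa5 is higher in both than in the mouse hosts.

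In the graft Manf rose, and the BiP gene Hspa5 and Xbp1 were among the members with higher values than in mouse hosts. Of the 23 ATF6/XBP1-type genes 20 had a positive log2 fold change against mouse host, with a median of 0.50 beside -0.09 for all genes tested. Manf was the member called, while 0.115% of all genes were called in either direction and 0.0191%, which is 3 genes, as higher. With Manf, 11 of 32 members had an unadjusted p below 0.05, as had 12.4% of all genes. The graft too was 1 experiment, older than the mouse hosts and labelled male.

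Manf read 203.8, 214.8, 201.9 and 214.3 CPM in the graft libraries and 52.1 to 120.7 (median 70.1) in the mouse-host ones, a log2 fold change of 1.51 (SE 0.18, adjusted p = 0.0434). All 4 graft libraries lay above all 24 control and mouse-host libraries, the highest of which held 133.7 CPM. The call was lost when any 1 of the 6 control and mouse-host experiments was left out (adjusted p = 0.055 to 0.126, edgeR). It was also lost without any 1 of 8 single libraries (adjusted p = 0.0504 to 0.0602), with a log2 fold change between 1.46 and 1.54 in all these fits. The 8 were replicates 1 and 3 of mouse-host experiments 1 and 2, replicate 3 of experiment 3, replicates 2 and 3 of experiment 4 and replicate 4 of control experiment 2. Hspa5 read 2219, 2885, 2082 and 2144 CPM, also above all 24 libraries, with a log2 fold change of 0.82 (SE 0.13, adjusted p = 0.0809).

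Sdf2l1 read 155.6, 299.8, 199.3 and 157.8 CPM in the graft and 69.2 to 147.1 (median 99.99) in mouse hosts, a log2 fold change of 0.99 (SE 0.19, adjusted p = 0.117). Hsp90b1 read 947.4, 1270, 1056 and 840.4 CPM against 420.7 to 750.4 (median 626.8), a log2 fold change of 0.73 (SE 0.18, adjusted p = 0.174). Hspa5, Hsp90b1, Sdf2l1 and Manf were the 4 members of 32 above all 16 mouse-host libraries, where 0.446% of all genes lay so, and none was below them, where 0.299% lay so. Hspa5, Sdf2l1 and Manf were also above the 8 controls, where 0.217% of all genes lay so. On unadjusted library totals Sdf2l1 was no longer in either group.

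Dnajb9, a known target of spliced XBP1, and the regulators Xbp1 and Atf6 had higher graft values without being called. Dnajb9 read 30.1, 129.5, 87.8 and 50.9 CPM in the graft against 17.9 to 60.8 in mouse hosts, a log2 fold change of 1.39 (SE 0.32, adjusted p = 0.155), with 2 graft libraries inside the mouse-host range. Xbp1 read 290.6, 311.0, 398.1 and 255.8 CPM against 150.1 to 263.4 (median 183.0), a log2 fold change of 0.73 (SE 0.17, adjusted p = 0.155), with 1 library inside it. Atf6 read 13.7, 66.2, 29.3 and 63.0 CPM against 1.61 to 38.2 (median 18.7), a log2 fold change of 1.13 (SE 0.33, adjusted p = 0.237). Replicates 2 and 4 of the graft were high for Atf6 and for Atf4 alike, and the other 2 lay inside the mouse-host range. Derl2, a degradation channel gene, had a log2 fold change of 0.67 (SE 0.27, adjusted p = 0.379) and Pdia4 of 0.58 (SE 0.14, adjusted p = 0.172).

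Of the ATF4/CHOP-type genes, Ddit3 was lower and Atf4 higher in the graft. Ddit3 read 14.1, 8.91, 28.7 and 8.79 CPM against 21.7 to 60.3 (median 35.4) in mouse hosts, a log2 fold change of -1.44 (SE 0.37, adjusted p = 0.19). Atf4 read 24.4, 78.3, 17.5 and 56.6 CPM against 5.85 to 42.0, a log2 fold change of 1.06 (SE 0.46, adjusted p = 0.401). Trib3, a pseudokinase induced by CHOP, had reads in 1 of 4 graft libraries (12.5 CPM) and in 1 of 16 mouse-host libraries, and none elsewhere. Chac1, a glutathione-degrading enzyme, had reads in 2 of 16 mouse-host libraries and none in any other library. Reads of these 2 genes sat in single pools, so no fold is given.

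**Figure D3:**
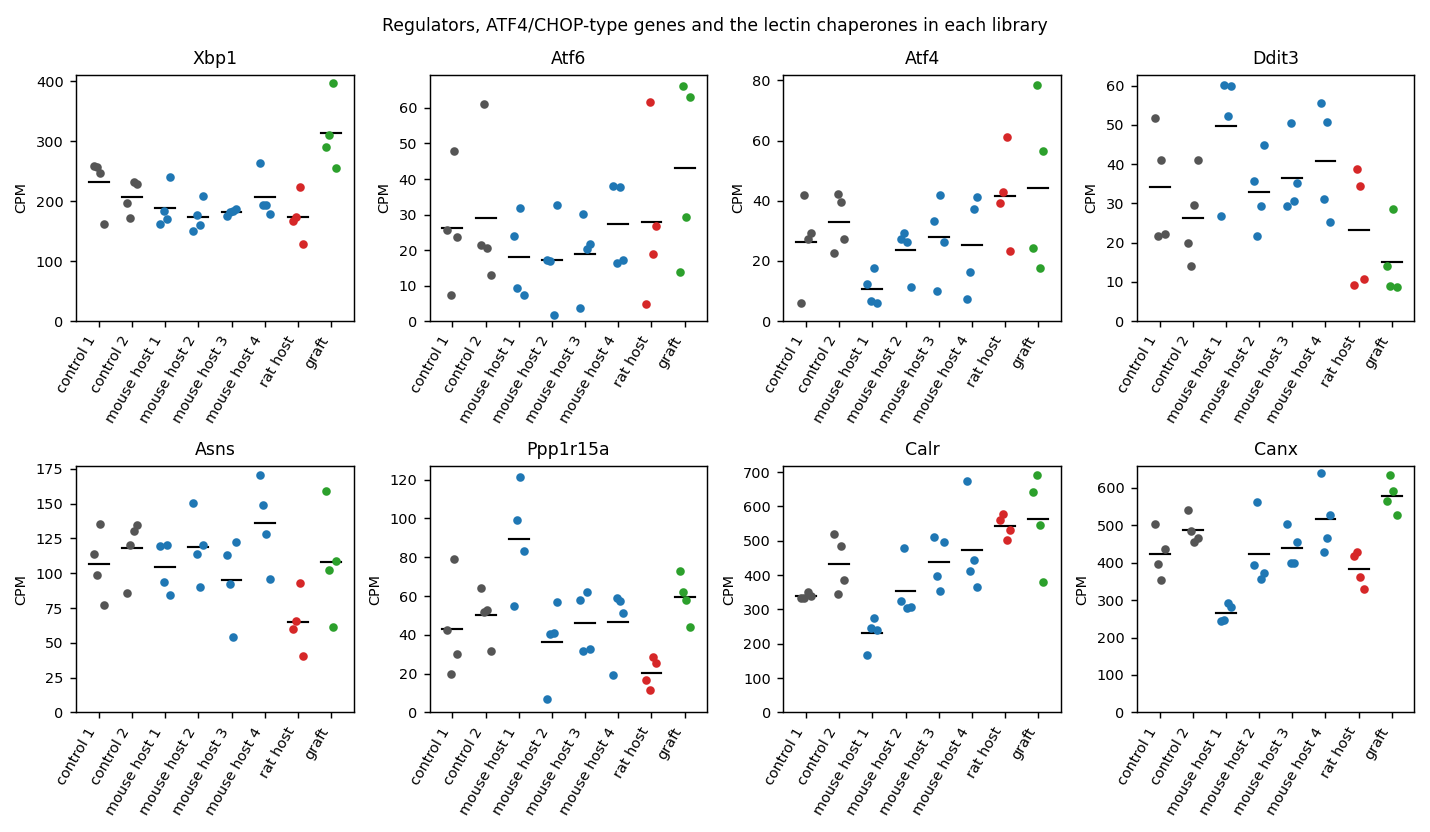
CPM (vertical axes, from 0) of Xbp1, Atf6, 4 ATF4/CHOP-type genes and the lectin chaperones Calr and Canx in each of 32 libraries, grouped by experiment, with a bar at the mean of 4 libraries. Xbp1 is highest in the graft, Ppp1r15a lowest in the rat host, Ddit3 lowest in the graft, and Calr and Canx lowest in mouse-host experiment 1.

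The rat host and the graft were both set against the same mouse hosts, so their values are given side by side. Hspa5 had log2 fold changes of 0.59 in the rat host and 0.82 in the graft. It was among the 0.0191% of all genes above all 16 mouse-host libraries in both, a count in which both sides share those libraries and from which nothing is read. No member lay above all 24 control and mouse-host libraries in both, where 0.00637% of all genes did, and none lay below in both, where 0.0255% did. The contrast of rat host against graft, added after the data had been seen, called no member at an adjusted p below 0.05 (edgeR on experiment sums), where 0.726% of all genes were called. At an unadjusted p below 0.05 stood 8 of 32 members and 14.3% of all genes. DESeq2, limma voom and edgeR on single libraries each called 6 members, beside 8.07%, 7.6% and 8.17% of genes with a p-value. Limma on TPM called 2 members and 7.01% of genes, so that count is near the background. With 1 experiment on either side this contrast has no replication of its own and borrows the spread of the other arms.

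Higher in the rat host were Pdia6 at 849.7 ± 51.6 CPM against 431.7 ± 39.3 in the graft (SD, n = 4 libraries each), a log2 fold change of 1.03 (SE 0.26, adjusted p = 0.12 by edgeR), and P4hb at 649.0 ± 69.6 against 319.2 ± 77.1, a log2 fold change of 1.04 (SE 0.36, adjusted p = 0.24 by edgeR). Hyou1 was at 46.5 ± 14.3 CPM in the rat host against 17.4 ± 13.5, a log2 fold change of 1.41 (SE 0.39, adjusted p = 0.149 by edgeR). Lower in the rat host were Dnajb9 at 22.9 ± 3.51 CPM against 74.6 ± 43.7, a log2 fold change of -1.69 (SE 0.45, adjusted p = 0.139 by edgeR), and Xbp1 at 173.4 ± 39.0 against 313.9 ± 60.6, a log2 fold change of -0.81 (SE 0.23, adjusted p = 0.153 by edgeR). Manf had a log2 fold change of -0.76 (SE 0.24, adjusted p = 0.21), Asns of -0.72 (SE 0.29, adjusted p = 0.317) and Ppp1r15a of -1.50 (SE 0.61, adjusted p = 0.321). All 4 rat-host libraries lay above all 4 graft libraries for 2 of 32 members, Pdia6 and P4hb. Over all genes 8.19% lay so, and nothing is read from this count of 2. The rat-host libraries all lay below the graft libraries for 8 of 32 members, where 6.28% of all genes lay so. The 8 were Xbp1, Hspa5, Hsp90b1, Dnajb9, Canx, Manf, Herpud1 and Ppp1r15a. On unadjusted library totals the fitted sign of Hspa5 between rat host and graft turned, as did those of Calr, Pdia3, Pdia4, Eif2ak3 and Atf4, none of which was called.

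Treating single libraries as the replicates, which counts the 4 libraries of an experiment as independent, gave more calls. For rat host against mouse host edgeR then called 8 members and 5.91% of all genes. The 6 higher members were Pdia6, P4hb, Hspa5, Dnajb11, Manf and Sdf2l1, and the 2 lower ones Asns and Ppp1r15a. For graft against mouse host it called 9 members and 3.63% of all genes. The 8 higher members were Manf, Hspa5, Sdf2l1, Xbp1, Hsp90b1, Dnajb9, Pdia4 and Pdia3, and Ddit3 was the lower one. For rat host against graft it called 6 members and 8.17% of all genes, with Pdia6 and P4hb higher and Dnajb9, Xbp1, Manf and Hsp90b1 lower in the rat host.

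**Figure D4:**
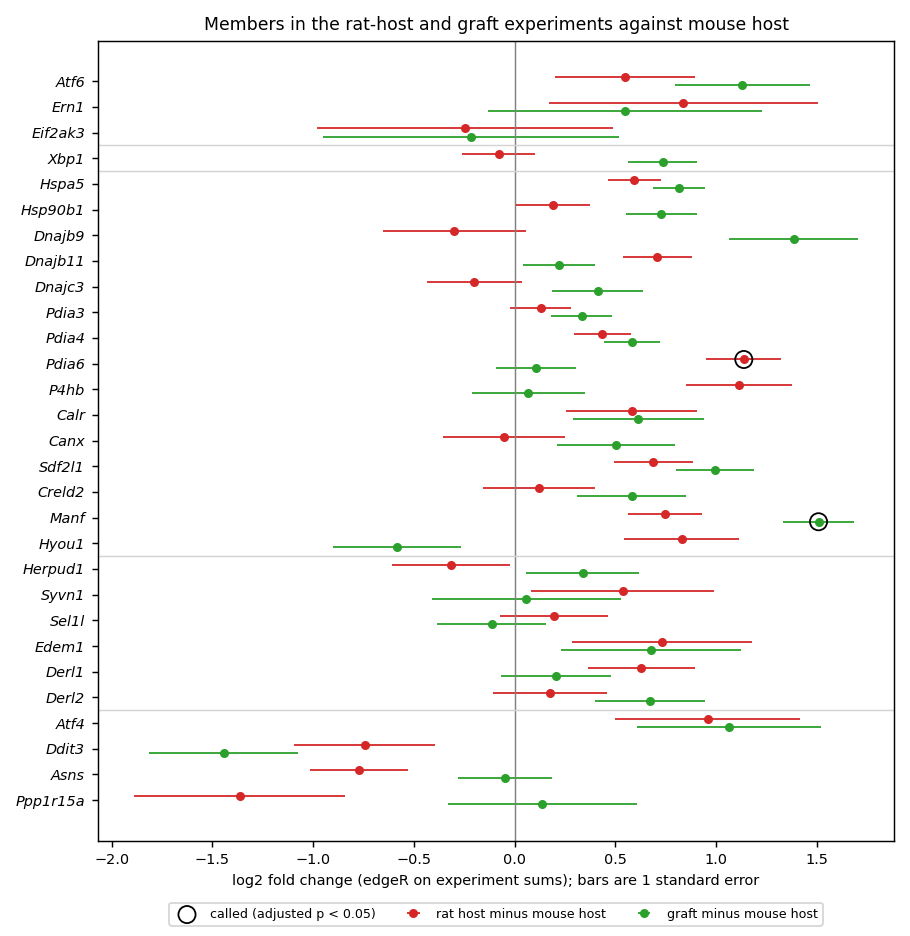
Log2 fold change (horizontal axis, edgeR on experiment sums) with its standard error for 29 members in the rat host (red) and the graft (green), each against the same mouse-host experiments; circles mark the 2 called values, and Derl3, Trib3 and Chac1, with few reads, are left out. Pdia6, P4hb, Dnajb11 and Hyou1 lie further right in the rat host, and Dnajb9, Manf, Hsp90b1 and Xbp1 further right in the graft.

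Within an arm, the 2 lectin chaperones of the glycoprotein folding cycle varied most clearly. Calreticulin (Calr) and calnexin (Canx) hold glycoproteins in the ER until they are folded. Among the 4 mouse-host experiments, an edgeR F-test on 16 libraries called Canx (adjusted p = 0.0174) and Calr (adjusted p = 0.0466) of 29 members tested, where 1.35% of 12195 genes were called. In mouse-host experiment 1 Canx read 245.0, 245.6, 292.3 and 281.5 CPM, below all 12 libraries of experiments 2 to 4, which ran from 357.8 to 639.2. Calr read 168.5, 245.4, 276.1 and 240.0 CPM there, below the range of 304.8 to 674.1 in the other 12 libraries. Both genes were picked by the F-test on these same libraries, and the share of all genes separated in this way was not computed. The separation is thus a description that adds nothing to the test. Experiment means for Canx were 266.1 ± 24.4, 422.1 ± 95.2, 439.8 ± 50.02 and 515.5 ± 92.0 CPM in experiments 1 to 4 (SD, n = 4). For Calr they were 232.5 ± 45.5, 353.5 ± 84.1, 438.7 ± 76.1 and 473.7 ± 137.3 CPM. The Calr call was lost without any 1 of 14 of the 16 libraries, all but replicate 2 of experiment 2 and replicate 4 of experiment 4 (adjusted p = 0.0556 to 0.118, edgeR), and with RLE scaling (0.0568). The Canx call was lost without replicate 1, 2 or 4 of experiment 1 (adjusted p = 0.0546 to 0.076, edgeR). With the replicate number as a block, neither gene was called (Calr at adjusted p = 0.11, Canx at 0.05, edgeR).

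P4hb was not low in that experiment. It was highest there, at 421.4 ± 52.3 CPM against 238.6 ± 57.0, 288.0 ± 76.5 and 292.4 ± 51.0 in experiments 2 to 4 (SD, n = 4; adjusted p = 0.156 by edgeR). Ppp1r15a had its highest mean there as well, at 89.6 ± 28.0 CPM, and Atf4 its lowest, at 10.6 ± 5.51 CPM. Creld2, a secreted ER protein, and Pdia3 had unadjusted p below 0.05 and adjusted p of 0.355 and 0.382. Between the 2 control experiments no member was called of 29 tested, by edgeR or by DESeq2, and 1 had an unadjusted p below 0.05. Of 11544 genes 0.0173% were called by edgeR, which is 2 genes, and 622 had an unadjusted p below 0.05. Calr, at 339.1 ± 8.82 CPM in experiment 1 and 433.4 ± 81.9 in experiment 2 (SD, n = 4), had the smallest p of the members (log2 fold change 0.37, SE 0.14, adjusted p = 0.833 by edgeR). The largest fold changes were those of the scarce genes Eif2ak3 (-0.87, SE 0.74), Syvn1, a ubiquitin ligase (-0.84, SE 0.55), Ern1 (-0.55, SE 0.94) and Hyou1 (0.45, SE 0.43), all with adjusted p of 0.99 or more.

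The members also differed in how much single pools of a group varied. The pooled SD of log2(CPM + 1) among the 4 libraries of an experiment had a median of 0.28 over the 15 chaperones, 0.53 over the degradation genes, 0.67 over the 4 ATF4/CHOP-type genes that passed the filter for low counts and 1.15 over the sensors. Over all 13135 genes that passed it the median was 0.77, and over the 1564 genes averaging at least 100 CPM it was 0.29, beside 0.28 for the 16 members at that level. Pdia3 varied least between libraries (SD 0.14), then Hspa5 (0.17) and Canx (0.19). The SD between the 8 experiment means exceeded the SD within experiments most for Hspa5, by a ratio of 1.83, followed by Canx (1.74) and P4hb (1.65). The median ratio was 1.16 over the 16 abundant members and 0.87 over abundant genes in general. The sensors Eif2ak3 (1.24) and Atf6 (1.15) varied most, followed by Edem1 (1.07), Ern1 (1.03) and Derl3 (1.03), all of them scarce.

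**Figure D5:**
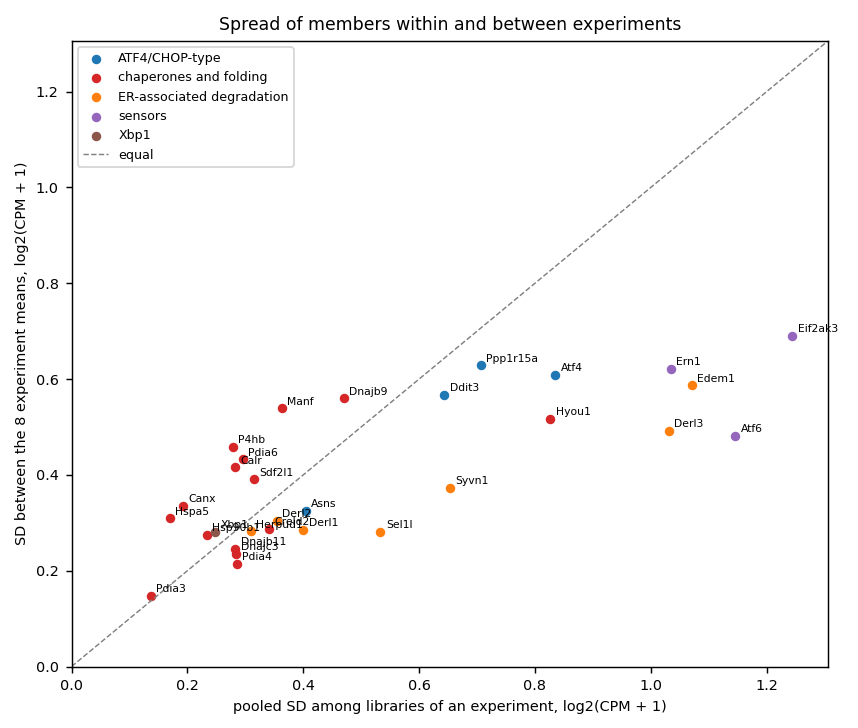
SD of log2(CPM + 1) between the 8 experiment means (vertical axis) against the pooled SD among the 4 libraries of an experiment (horizontal axis) for the members that passed the filter on low counts, coloured by class, with a dashed line where both are equal. Hspa5, Canx, P4hb and Pdia6 lie above the line, and the sensors, Edem1, Derl3 and Hyou1 lie far below it.

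The way members varied between pools was described after subtracting the mean of each experiment. Over 32 libraries, which share library preparation and scaling, the median Pearson correlation was 0.23 over 105 pairs of chaperones (-0.47 to 0.69) and 0.00 over 6 pairs of ATF4/CHOP-type genes (-0.44 to 0.22). These are descriptions, and neither the difference nor other genes of like abundance were tested. Hspa5 correlated at 0.69 with Pdia3, at 0.67 with Calr and at 0.64 with Sdf2l1, and Calr at 0.65 with Canx. Pdia6 and P4hb, both high in the rat host, correlated at 0.08. Between ATF6/XBP1-type and ATF4/CHOP-type genes the median over 88 pairs was -0.01, with 1 high value between Xbp1 and Ddit3 (0.67). Atf4 and Ddit3, a regulator and its known target, correlated at -0.44. Correlations that involve scarce genes are weak measures.

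None of the members not yet described separated the rat host or the graft from the mouse hosts. Pdia3 was the steadiest abundant member, at 1291 ± 85.7 CPM in controls, 1299 ± 118.4 in mouse hosts, 1380 ± 121.1 in the rat host and 1624 ± 206.5 in the graft. Herpud1, which recruits the degradation machinery, read 170.8 to 195.5 CPM in the graft and 105.0 to 123.5 in rat-host libraries, both inside the mouse-host range of 87.3 to 309.4. Dnajc3, a co-chaperone that also inhibits PERK, had means of 161.9 CPM in controls, 150.4 in mouse hosts, 126.8 in the rat host and 198.5 in the graft. Sel1l and Syvn1 belong to the main ubiquitin ligase complex of ER-associated degradation, in which Syvn1 is the ligase. Their means over the 4 arms were 88.5 to 111.0 CPM for Sel1l and 16.5 to 23.4 CPM for Syvn1. Derl3 had no read in 13 of 16 mouse-host libraries and 3 of 4 graft libraries, and reached at most 10.5 CPM. All 32 members passed the filter of the fit on experiment sums, 30 that on single libraries.

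The Xbp1 values above do not separate the spliced, active form from the unspliced one. Of the 4 annotated Xbp1 transcripts, Xbp1-201 took 98.3% of the gene's reads in controls, 97.5% in mouse hosts, 97.8% in the rat host and 98.4% in the graft. The split of reads between these transcripts is no measure of the cut made by IRE1, and Xbp1 splicing was not analysed here. ATF4 protein is set largely by translation, and the Atf4 values describe its mRNA only. In pools of cells, fewer cells that express a gene and less RNA per cell cannot be told apart.

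Beyond the 32 members, 83 other genes of the same pathways were listed, of which 80 passed the filter. None was called between rat host and mouse host or between graft and mouse host by edgeR on experiment sums, where 21 and 24 had an unadjusted p below 0.05, beside 11.6% and 12.4% of all genes. On single libraries 8 were called higher and 4 lower in the rat host, beside 5.91% of all genes, and 5 higher and 4 lower in the graft, beside 3.63%. Of the 25 other folding genes, 20 had a positive log2 fold change in the rat host (median 0.50) and 16 in the graft (median 0.18). Between rat host and graft, 1 of these 80 genes was called, where 0.726% of all genes were called, so nothing is read from that count. It was Psat1, a serine synthesis enzyme under ATF4 control (log2 fold change 1.94, SE 0.27, adjusted p = 0.0288 by edgeR). Psat1 stood at 249.1 CPM in the rat host, 65.8 in the graft, 161.4 in mouse hosts and 103.3 in controls. Asns, a member under the same regulator, had the opposite sign in that contrast. The 24 tested genes of the ATF4 list, Psat1 included, had a median log2 fold change of 0.24 there, with 14 positive and 8 negative values. Against mouse host, these 24 genes had a median of 0.30 in the rat host, with 15 positive and 9 negative values. That sign is opposite to the lower sum of the 6 ATF4/CHOP-type members in the rat host. In the graft their median was -0.17, with 10 positive and 14 negative values.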

How the data were processed

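The authors quantified transcripts with Salmon and named GRCm39 as genome build, per the submitters' processing notes; which version and annotation were used is not given in the sources used here. Per transcript, the deposited tables hold an expected count of reads and a TPM value. Names came from GENCODE release M21 (GRCm38), which matched 115685 of 116747 transcripts; the unmatched held 0.49% of reads. Expected counts were summed per gene and rounded. For arm comparisons, counts were summed per experiment and all 4 arms entered 1 fit by edgeR's quasi-likelihood test (version 4.0.16, R 4.3.3) after TMM scaling and the default filter, with Benjamini-Hochberg adjustment and a threshold of 0.05. Differences within an arm were fitted on libraries. CPM values were averaged over the libraries of an experiment, then over the experiments of an arm. SDs of controls and mouse hosts are between experiments, those of rat host and graft between libraries. TPM served for levels between genes and for 1 alternative. Alternatives used DESeq2 1.42.0, limma 3.58.1 (log2 with a pseudocount of 1), other scalings, filters and omitted samples. The test scripts were tested on simulated data. No library pair agreed within sampling noise: over 48 pairs within experiments the lowest chi-square per degree of freedom was 41. No molecular identifiers were used. Members and lists were chosen with earlier results of these data known. Values in every library or experiment are given for 6 hub genes (Hspa5, Hsp90b1, Xbp1, Atf4, Ddit3, Atf6), for called members and for the 4 largest changes per comparison among members of at least 8 CPM. Fold changes are given for those 4, for called members and for members with an unadjusted p below 0.05.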

Additional observations from a re-analysis of the deposited data

Results flagged for a closer look

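In 7 of 144 groups of 4 libraries, 1 library of a member stood far from the other 3 by Dixon's test (the gap to the nearest library over the whole range). Chance gives about 1 group in 20. Replicate 4 of mouse-host experiment 2 was low for Hsp90b1, at 451.0 CPM beside 606.9 to 628.0, and for Atf4, at 11.4 CPM beside 26.4 to 29.2. Xbp1 read 162.7 CPM in replicate 4 of control experiment 1 beside 247.4 to 259.2. Hyou1 read 25.04 CPM in replicate 4 of the rat host beside 52.9 to 54.8. On the high side, Edem1 read 65.6 CPM in replicate 2 of the graft beside 7.97 to 15.8. P4hb read 499.2 CPM in replicate 2 of mouse-host experiment 1 beside 390.4 to 404.2, and Calr 479.0 CPM in replicate 2 of mouse-host experiment 2 beside 304.8 to 323.5.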

How the results depend on the processing

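Counts of calls moved with the tool, the measure, the filter and the unit of replication, and the cause of each change below was not tested. For mouse host against control DESeq2 called 2 members and 160 genes, limma voom (experiment taken as random) 42 genes, and edgeR on single libraries 14 genes, or 4 with a replicate block. For rat host against mouse host, members called were 0 with RLE scaling (Pdia6 at adjusted p = 0.0509), 2 on library totals, 10 with DESeq2, 7 with limma on TPM, 7 with voom, and 8 on single libraries with or without the replicate block. Genes called there were 185 on library totals, 173 without a filter and 225 at a mean of at least 5 CPM. DESeq2 called 1045 genes (5.3% of those tested), limma on TPM 647 (4.12%) and voom 1043 (7.94%). Single libraries gave 776 (5.91%), and 820 with the replicate block. For graft against mouse host, members called were 3 at a mean of at least 5 CPM, 10 with DESeq2, 2 on TPM, 7 with voom, 9 on single libraries and 8 with the replicate block. Genes called there were 53 without a filter and 78 at 5 CPM. DESeq2 called 1253 genes (6.36% of those tested), limma on TPM 233 (1.48%) and voom 316 (2.41%). Single libraries gave 477 (3.63%), and 420 with the replicate block. For rat host against graft, 6 members were called with DESeq2, voom and single libraries with or without the replicate block, and 2 on TPM. Genes called there were 205 on library totals, 235 without a filter, 268 at 5 CPM, 1591 with DESeq2, 1100 on TPM, 998 with voom, 1073 on single libraries and 1053 with the replicate block.

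Between control experiments, genes called were 0 with the replicate block, 169 with DESeq2, 4 on TPM and 0 with voom. Among mouse-host experiments 1 member was called with RLE scaling and 0 with the replicate block (Calr at adjusted p = 0.11, Canx at 0.05, edgeR), and genes called were 794 with DESeq2 and 293 on TPM. No pairing of samples by replicate number was seen: in none of the 28 pairs of experiments did all same-numbered libraries deviate together at a correlation over 0.1. In such small pools of cells this check cannot exclude pairing or a shared batch. The chaperone ratio of rat host to mouse host was 1.6 on library totals and 1.81 on TPM, the ATF6/XBP1-type ratio 1.57 and 1.75, and the ATF4/CHOP-type ratio of graft to mouse host 0.739 on TPM. Ern1 turned sign between controls on TPM (0.22) and without replicate 1 of control experiment 1; leaving out 1 library gave -1.21 to 0.12.

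Leaving out 1 experiment gave 0 to 2 members and 12 to 126 genes for rat host against mouse host (2 members without mouse-host experiment 1), 0 members and 0 to 6 genes for graft against mouse host, and 17 to 183 genes for rat host against graft. Leaving out 1 library gave 0 to 1 members and 69 to 127 genes, 0 to 2 members and 5 to 77 genes (2 without replicate 1, 3 or 4 of the graft), and 82 to 312 genes. Between controls it gave 0 to 4 genes, and among mouse hosts 0 to 2 members and 78 to 202 genes. Depth limits Trib3, Chac1 and Derl3, whose reads came from few libraries.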
